A study of Mus musculus with 12 samples.

Results

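Triglyceride synthesis enzymes were followed in livers of mice that lacked PPARγ in hepatocytes and in livers of their wild-type controls. The genes were chosen by name and comprised the glycerol-3-phosphate acyltransferases Gpam, Gpat3 and Gpat4, the acylglycerol-phosphate acyltransferases Agpat2 and Agpat3, the lipins Lpin1 and Lpin2, the monoacylglycerol acyltransferase Mogat1 and the diacylglycerol acyltransferases Dgat1 and Dgat2. These were 10 of the 54532 genes in the count files, and all 10 had enough counts for a test in every comparison. The mice were males with both PPARγ alleles floxed, 8 weeks old at injection. PPARγ-KO animals received an AAV8 virus carrying Cre recombinase behind the TBG promoter, which is active in hepatocytes, and their littermate controls, called wild-type here and WT in the labels, received an equal dose of an AAV8-TBG virus carrying eGFP. Wild-type therefore means floxed and virus-treated, and liver cells other than hepatocytes were not targeted. All animals ate a fast-food diet (FFD) rich in saturated fat, cholesterol and sucrose, with fructose and glucose in the drinking water, for 2 or 5 months after the injection, so the 5-month animals were also older. Each genotype had 3 libraries of whole-liver RNA at each time, 12 in all, with 16367775 to 27452284 gene counts per library.

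Triglyceride is built in the endoplasmic reticulum by adding fatty acids to glycerol 3-phosphate one after another. A glycerol-3-phosphate acyltransferase attaches the first fatty acid, an acylglycerol-phosphate acyltransferase attaches the next to give phosphatidate, a lipin removes the phosphate to give diacylglycerol, and a diacylglycerol acyltransferase attaches the last. Monoacylglycerol acyltransferases reach diacylglycerol by a separate route, from monoacylglycerol. In liver this pathway serves both lipid storage and the export of very low density lipoprotein, and PPARγ is a nuclear receptor best known as a driver of fat storage in adipocytes. The comparisons asked how the transcripts of each step differed between genotypes at each time on FFD and how they changed over time within a genotype.

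RefSeq start-site windows of GRCm38.p6, each running from 250 bases before to 50 bases after a start site, were at hand for 7 of the 10 genes (Gpam, Gpat3, Agpat2, Agpat3, Lpin1, Lpin2 and Mogat1), with 10 windows in all. The upstream sequences of Mogat1, which was lower in PPARγ-KO libraries at both times, and of Lpin1, Lpin2 and Gpam, which were higher at 5 months, are shown. Gpat3 and Agpat2 also differed between genotypes, but their windows are not printed. That of Gpat3 had no upstream base outside annotated exons, and that of Agpat2, like that of Mogat1, held none of the motifs searched. Lpin2 has 3 windows and Gpam 2, and for each the window that holds a motif match is printed, the other windows of these genes holding none of the motifs searched. Only bases that lie outside every annotated exon are printed, written 5′ to 3′ on the strand of the gene, with capitals marking AGGTCA, the core site of many nuclear receptors, and CACGTG, the E-box read by helix-loop-helix factors.
Mogat1, chr1:78510810-78510990, plus strand: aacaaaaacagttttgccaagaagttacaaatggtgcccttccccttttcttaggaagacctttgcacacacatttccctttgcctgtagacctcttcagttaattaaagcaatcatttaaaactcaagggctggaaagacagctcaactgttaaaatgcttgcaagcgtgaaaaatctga
Lpin1, chr12:16610967-16611216, minus strand: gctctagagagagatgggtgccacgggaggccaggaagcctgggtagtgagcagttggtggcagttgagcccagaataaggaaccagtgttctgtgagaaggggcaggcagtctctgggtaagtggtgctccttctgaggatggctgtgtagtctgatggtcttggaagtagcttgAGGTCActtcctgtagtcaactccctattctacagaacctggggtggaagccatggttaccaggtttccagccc
Lpin2, chr17:71183282-71183531, plus strand: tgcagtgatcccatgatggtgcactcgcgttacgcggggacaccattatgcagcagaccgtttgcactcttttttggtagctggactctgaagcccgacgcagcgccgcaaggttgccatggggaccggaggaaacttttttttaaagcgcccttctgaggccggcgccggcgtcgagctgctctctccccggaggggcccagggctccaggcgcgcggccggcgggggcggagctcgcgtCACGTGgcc
Gpam, chr19:55099633-55099727, minus strand: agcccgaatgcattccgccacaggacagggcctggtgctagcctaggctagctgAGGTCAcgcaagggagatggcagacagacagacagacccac
These letters were searched on both strands of the whole windows. AGGTCA was found in windows of Lpin1, 74 bases before its start site, and of Gpam, 196 bases before, and 16.3% of all 32851 mouse windows held it. CACGTG was found in a window of Lpin2, 9 bases before its start site, and in 7.15% of all windows. The DR1 motif, a tandem repeat of the AGGTCA kind that PPARγ reads with its partner RXR, was found in none of the 10 windows and in 0.381% of all windows, and TCACNCCAC, a motif of the sterol-responsive SREBP factors, in none of the 10 and in 1.24% of all. A match or its lack describes these letters in these windows only.

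Pparg, the targeted gene, was counted over its whole length, so the deposited values do not separate the deleted part of the gene from the rest and do not test the deletion. Its normalised CPM (read counts scaled by library size and TMM factor) were 38.8, 41.4 and 37.7 in the wild-type libraries at 2 months and 50.5, 66.5 and 52.1 in the PPARγ-KO libraries, and 36.9, 41.4 and 37.1 against 86.6, 93.0 and 75.1 at 5 months. The transcript was thus more abundant, not less, in the libraries labelled PPARγ-KO, by 0.52 ± 0.11 on the log2 scale (edgeR log2 fold change ± SE, n = 3 per group, adjusted p = 0.0309) at 2 months and by 1.15 ± 0.08 (adjusted p = 2.57e-06) at 5 months. Genotypes below follow the labels. Summed CPM of 7 hepatocyte markers ran from 51640 to 63190 in wild-type and from 69450 to 82350 in PPARγ-KO libraries, most of it Alb, whose group means at 5 months were 36978 and 57105 CPM, while Apoa1 and Fabp1 had log2 fold changes of -0.01 and -0.00031 there and did not pass the test. Summed adipocyte markers reached 32.8 CPM in 1 wild-type library and 7.23 in the others at most, and stayed at or below 0.0571 in PPARγ-KO libraries. Nearly all of this was Cfd, and Adipoq, Plin1, Lep and Retn had 0 to 2 counts in every library. Mitochondrial genes took 4.702% to 6.437% of the counts. No 2 replicates agreed within counting noise, and the most divergent library of its group was the first wild-type replicate of 2 months. Wild-type replicates 2 and 3 of 5 months were far closer than any other pair. Their chi-square per gene, near 1 for counting noise alone, was 2.441, against 9.397 to 31.68 for the other pairs.

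**Figure D1:**
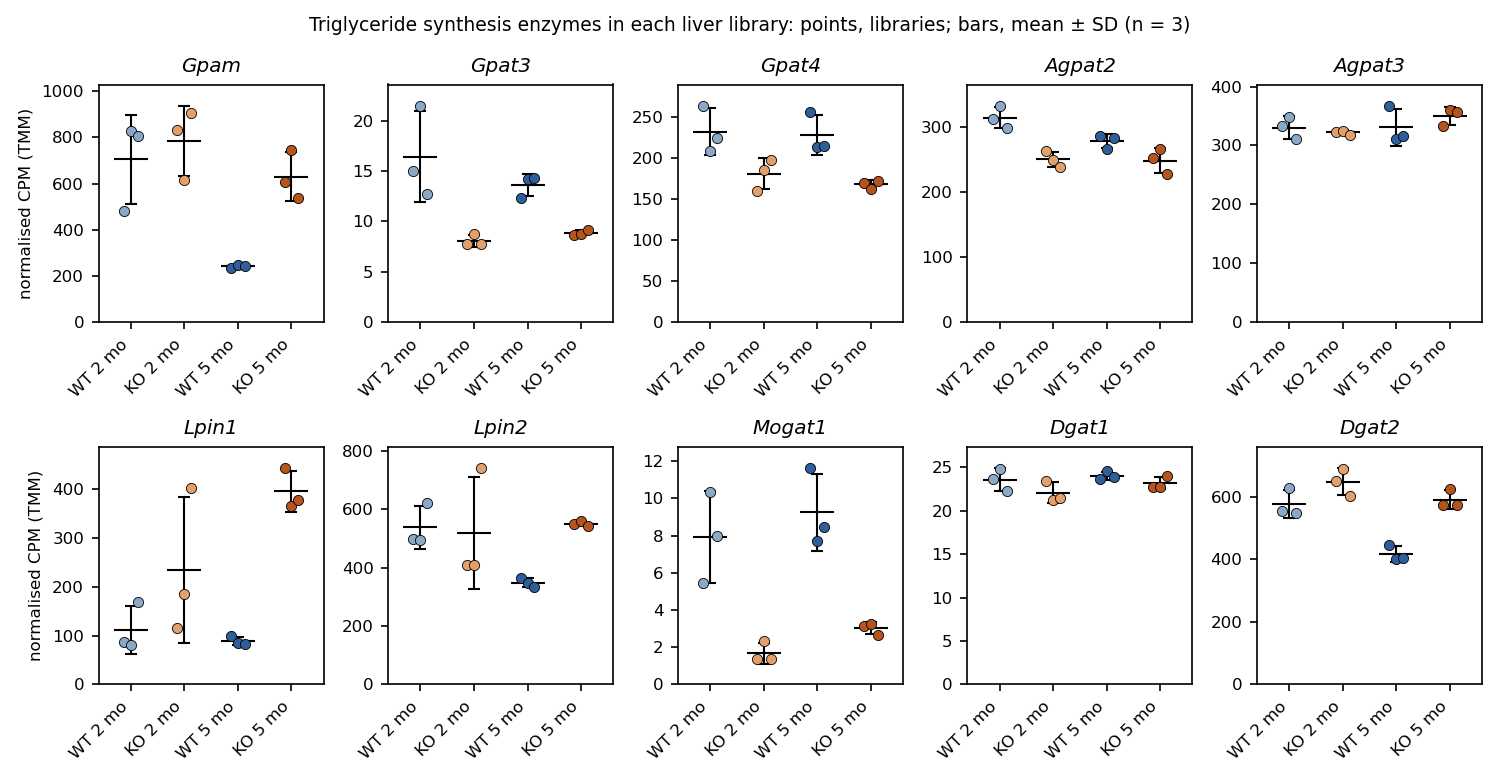
Normalised CPM of the 10 triglyceride synthesis genes in each of the 12 liver libraries, with the mean and SD of the 3 libraries of each group (WT, wild-type; KO, PPARγ-KO; mo, months of FFD). Mogat1, Gpat3 and Gpat4 points of PPARγ-KO lie below all wild-type points of the same time. Lpin1, Gpam, Lpin2 and Dgat2 points of PPARγ-KO lie above those of wild-type at 5 months.

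At 2 months the enzyme transcripts that passed the test were lower in PPARγ-KO livers. Mogat1, Gpat3 and Agpat2 were lower, by 4.76-, 2.03- and 1.26-fold, and none of the 10 passed as higher. Of the 10 log2 fold changes, 3 were positive and 7 negative. The largest positive one was that of Lpin1, at 1.07, which did not pass the test (edgeR, adjusted p = 0.446) and whose groups overlapped. A rise of Lpin1 at 2 months was therefore neither shown nor excluded. Gpam and Dgat2, among the most abundant isozymes of their steps, were within 0.17 of wild-type on the log2 scale. Across all 14573 genes tested, 1.78% were called lower and 1.78% were called higher, against 3 and 0 of the 10 enzymes in edgeR. DESeq2 called 3 of the 10 lower and 0 higher, beside 492 and 496 of 14573 genes. At an unadjusted p under 0.05 with a 1.3-fold change, 2 were lower and 0 higher, beside 945 and 663 genes. Without the fold limit 4 enzymes passed, all of them lower, and the share of all genes was not counted there. Scaling by library size alone moved the split of all called genes from 259 higher and 260 lower to 171 and 349. Groups did not overlap for 4 of the 10 enzymes (Mogat1, Gpat3, Gpat4 and Agpat2), and for 24.1% of all genes. The median log2 fold change of the enzymes was -0.07, beside -0.00483 for all genes, and the median size of change was 0.25 beside 0.16. In whole liver, fewer cells of a type and less RNA per cell cannot be told apart.

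Mogat1 makes diacylglycerol from monoacylglycerol and is a known PPARγ target in fatty liver. It is annotated on chromosome 1 (mm10, 78510991 to 78538173, plus strand). Its raw counts at 2 months were 100, 201 and 157 in wild-type and 26, 41 and 37 in PPARγ-KO libraries. As CPM these were 5.46, 10.4 and 7.97 against 1.35, 2.34 and 1.38, so the highest PPARγ-KO library lay below the lowest wild-type library. The log2 fold change was -2.25 ± 0.30 (SE, n = 3 per group, edgeR quasi-likelihood F-test, adjusted p = 0.00606), and it stayed past the threshold in all 13 alternatives, from -2.54 to -2.01. The gene overlaps BC035947 on the opposite strand over 1168 bases, and that neighbour had 0 to 29 counts per library. Whether counting used the strand is not stated, so the Mogat1 counts are uncertain by an amount that was not measured.

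Gpat3, an acyltransferase of the endoplasmic reticulum that is prominent in adipocytes, had 15.0, 21.4 and 12.7 CPM in wild-type and 7.77, 8.79 and 7.71 in PPARγ-KO libraries at 2 months. All PPARγ-KO values were below all wild-type values, and the log2 fold change was -1.02 ± 0.19 (SE, n = 3 per group, edgeR, adjusted p = 0.0207). With wild-type replicate 2 left out it was -0.78 (adjusted p = 0.0532), and without PPARγ-KO replicate 1, 2 or 3 the adjusted p was 0.0963, 0.0569 or 0.0843. Gpat3 overlaps the antisense gene 4930458D05Rik, which had 6 to 28 counts, and on its own strand Gm42987 over 2350 bases, which had 0 to 9. Gpat4, the other acyltransferase of the endoplasmic reticulum, had 263, 208 and 225 CPM in wild-type and 160, 185 and 197 in PPARγ-KO libraries. These groups did not overlap either, at a log2 fold change of -0.36 ± 0.11 (adjusted p = 0.0993 in edgeR), which did not pass the test. It passed without a filter on low counts (adjusted p = 0.00159), with all 12 libraries in one fit (0.0352) and with library size alone (0.0332).

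Gpam, the mitochondrial acyltransferase and the most abundant enzyme of the first step per length, had 483, 828 and 807 CPM in wild-type and 832, 615 and 905 in PPARγ-KO libraries at 2 months. The groups overlapped, and the log2 fold change of 0.15 had a 95% interval from -0.43 to 0.74. Agpat2, whose loss causes lipodystrophy, overlaps genes of the opposite strand, Egfl7 over 64 bases and Gm20532 over 11361 bases. Gm20532 had 0 counts in every library. Agpat2 had 312, 332 and 299 CPM in wild-type and 263, 249 and 238 in PPARγ-KO libraries, and its log2 fold change was -0.33 ± 0.08 (SE, n = 3 per group, edgeR, adjusted p = 0.0474). With the replicate number as a block it was the same size at an adjusted p of 0.0547. It missed the threshold when wild-type replicate 2 or 3 or PPARγ-KO replicate 1, 2 or 3 was left out (adjusted p = 0.183, 0.1, 0.123, 0.139 and 0.167). Agpat3, another isozyme of that step, had 310 to 348 CPM in wild-type and 318 to 325 in PPARγ-KO libraries, a log2 fold change of -0.04 (95% interval -0.20 to 0.13).

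Lipins remove the phosphate from phosphatidate, and lipin-1 also acts as a transcriptional coregulator. Lpin1 had 85.9, 80.8 and 168 CPM in wild-type and 116, 186 and 403 in PPARγ-KO libraries. Replicate 3 was the highest of both groups, the groups overlapped, and the log2 fold change of 1.07 had a 95% interval from -0.57 to 2.72 (edgeR, adjusted p = 0.446). With the replicate block the adjusted p was 0.0516. Lpin2 had 499, 494 and 623 CPM against 408, 410 and 741, again highest in replicate 3 of each genotype, with a log2 fold change of -0.05 (95% interval -0.70 to 0.59). Dgat1 had 22.2 to 24.8 CPM in wild-type and 21.3 to 23.5 in PPARγ-KO libraries, a log2 fold change of -0.09 (95% interval -0.29 to 0.10). Dgat2, which with Dgat1 makes triglyceride from diacylglycerol, had 556, 630 and 548 CPM against 652, 690 and 604, and its log2 fold change of 0.17 (95% interval -0.04 to 0.37) did not pass the test.

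At 5 months 7 of the 10 enzymes differed between genotypes, in both directions. Lpin1, Gpam, Lpin2 and Dgat2 were higher in PPARγ-KO livers, by 4.48-, 2.62-, 1.59- and 1.42-fold, and Mogat1, Gpat3 and Gpat4 were lower, by 3.03-, 1.52- and 1.35-fold. Agpat2, Agpat3 and Dgat1 did not pass the test. Of all 14138 genes tested, 8.9% were called higher and 9.51% lower, against 4 and 3 of the 10 enzymes, and groups did not overlap for 7 of the 10 and for 34.9% of all genes. With library size alone the split of all called genes was 889 higher and 1894 lower, in place of 1258 and 1344. The median size of change was 0.56 on the log2 scale for the enzymes and 0.177 for all genes, while the signed medians were 0.02 and -0.00577 because rises and falls balanced.

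**Figure D2:**
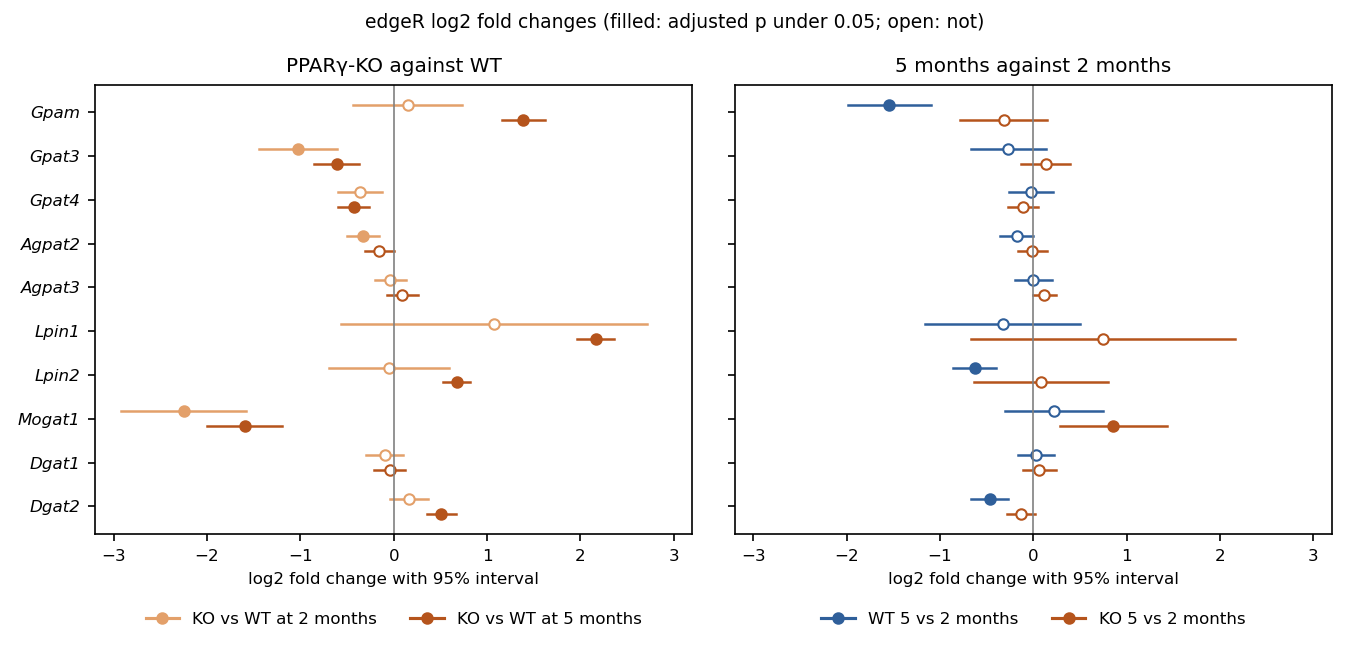
Log2 fold changes from edgeR with 95% intervals for the 10 enzymes, PPARγ-KO against wild-type at 2 and 5 months (left) and 5 against 2 months within each genotype (right), with filled circles for adjusted p under 0.05. Mogat1 and Gpat3 lie left of 0 with filled circles at both times. Gpat4, Agpat2 and Dgat1 also lie left of 0 at both times, with Gpat4 filled at 5 months only and Agpat2 at 2 months only. Lpin1 reaches 2.16 at 5 months, and Gpam, Lpin2 and Dgat2 fell over time in wild-type at -1.54, -0.63 and -0.47.

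Lpin1, on chromosome 12 (mm10, 16535669 to 16610966, minus strand), had 98.6, 84.9 and 82.7 CPM in wild-type and 442, 365 and 378 in PPARγ-KO libraries at 5 months. The lowest PPARγ-KO library was well above the highest wild-type library. Its log2 fold change of 2.16 ± 0.09 (SE, n = 3 per group, edgeR, adjusted p = 6.76e-08) was the largest of the 10 enzymes and ran from 2.08 to 2.25 over the 13 alternatives, all past the threshold. Lpin2 was 365, 346 and 334 CPM in wild-type and 551, 561 and 542 in PPARγ-KO libraries, a log2 fold change of 0.67 ± 0.07 (adjusted p = 2.11e-05 in edgeR). With all 12 libraries in one fit, which takes in the wide spread of Lpin2 at 2 months, the adjusted p was 0.0609. Both lipins thus lay apart from wild-type in every library at 5 months.

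Gpam, on chromosome 19 (mm10, 55069734 to 55099451, minus strand), had 235, 249 and 244 CPM in wild-type and 608, 746 and 536 in PPARγ-KO libraries at 5 months. Its log2 fold change was 1.39 ± 0.11 (SE, n = 3 per group, edgeR, adjusted p = 8.12e-06). The other acyltransferases of the first step went the opposite way. Gpat3 had 12.3, 14.2 and 14.3 CPM against 8.69, 8.77 and 9.16, a log2 fold change of -0.61 ± 0.11 (adjusted p = 0.00207 in edgeR), and Gpat4 had 256, 213 and 215 CPM against 170, 162 and 172, a log2 fold change of -0.43 ± 0.08 (adjusted p = 0.00167). For all 3 genes the values of the genotypes did not overlap.

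Mogat1 raw counts at 5 months were 196, 132 and 162 in wild-type and 67, 63 and 42 in PPARγ-KO libraries, or 11.6, 7.70 and 8.46 CPM against 3.16, 3.23 and 2.65. The groups stood apart, with a log2 fold change of -1.60 ± 0.19 (SE, n = 3 per group, edgeR, adjusted p = 9.24e-05). Dgat2 had 447, 402 and 406 CPM in wild-type and 574, 627 and 573 in PPARγ-KO libraries, a log2 fold change of 0.51 ± 0.07 (adjusted p = 0.000362 in edgeR). Its partner Dgat1 had 23.6, 24.6 and 23.9 CPM against 22.8, 22.7 and 23.9, and the 95% interval of its log2 fold change ran from -0.21 to 0.12. Agpat2 (285, 266 and 284 CPM against 252, 267 and 227) had an interval from -0.31 to 0.002, and Agpat3 (367, 311 and 315 against 333, 361 and 357) one from -0.07 to 0.26.

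Other liver markers moved with genotype at 5 months too. Across all genes tested 9.51% were called lower and 8.9% higher. Of 6 macrophage markers, 5 were lower in PPARγ-KO libraries and all 6 had negative fold changes, their summed level being 536 to 598 CPM in wild-type and 265 to 368 in PPARγ-KO. Also called lower were 2 of 5 endothelial cell, 1 of 5 lymphocyte and 1 of 2 tested neutrophil markers, while 1 of 5 cholangiocyte markers was higher. Of 7 stellate cell markers 3 were lower (sum 548 to 640 against 457 to 511), and of 7 hepatocyte markers 3 were higher (sum 51640 to 55850 against 70680 to 82350). All 16 circadian clock genes had positive fold changes and 7 were called higher (sum 449 to 471 against 570 to 632), among them Ciart, a repressor within the clock, and Per1. At 2 months 1 of the 7 stellate cell markers (Dcn) was lower and 6 had negative fold changes, the sum of all 7 being 498 to 550 CPM in wild-type and 377 to 394 in PPARγ-KO. At that time the clock sums were 965 to 1090 CPM in wild-type and 1011 to 1121 in PPARγ-KO libraries, with 12 of 16 fold changes positive, 4 negative and none called. Macrophage markers leaned the other way at 2 months, 5 of 6 having positive fold changes and none being called. Their sums were 255 to 314 CPM in wild-type and 300 to 342 in PPARγ-KO. Of all genes tested at 2 months, 1.78% were called lower and 1.78% higher. The part of these shifts in the enzyme differences at either time was not tested. None of the 12 libraries carries a label for the hour of collection.

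Both genotype effects were then compared with each other. The log2 fold change between genotypes was more positive at 5 than at 2 months for 9 of the 10 enzymes, all but Gpat4, with a median difference of 0.37 on the log2 scale beside -0.00445 for all genes, whose median size was 0.2. None of the 10 passed the test of this difference in edgeR, where 0.661% of 15127 genes were called higher and 0.912% lower. At an unadjusted p under 0.05 with a 1.3-fold change 2 of the 10 passed, beside 1563 of all genes. Without the fold limit, where the share of all genes was not counted, 3 of the 10 passed. These were Gpam (1.23 ± 0.30, adjusted p = 0.0866), Dgat2 (0.33 ± 0.11, adjusted p = 0.164) and Lpin2 (0.71 ± 0.29, adjusted p = 0.281). DESeq2 called Gpam (1.22, adjusted p = 0.000339), with 594 of 15127 genes called in all. So did edgeR without wild-type replicate 1 of 2 months (1.44, adjusted p = 0.00579), with 567 of 15515 called. An edgeR fit with the replicate number within each time as a block called Lpin1 (1.18, adjusted p = 0.0286) and Lpin2 (0.77, adjusted p = 0.0203). That block also pairs the 5-month libraries, whose same-numbered deviations were negatively correlated (-0.0779, -0.0603 and -0.179), so these 2 calls rest on a pairing not seen there. Without PPARγ-KO replicate 3 of 2 months edgeR called Lpin2 (1.06, adjusted p = 0.00191). The 2-month libraries are used in both this difference and the comparison at 2 months, so these are not separate pieces of evidence.

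Over time 3 enzymes passed the test in wild-type livers and 1 in PPARγ-KO livers. A difference between genotypes in the change over time is the same contrast as the one just described, which none of the 10 passed in edgeR. In wild-type livers Gpam, Lpin2 and Dgat2 were lower at 5 than at 2 months, and in PPARγ-KO livers Mogat1 was higher. The wild-type fall of Gpam was 2.91-fold, from 483 to 828 CPM down to 235 to 249, a log2 fold change of -1.54 ± 0.19 (SE, n = 3 per group, edgeR, adjusted p = 0.00046). Lpin2 fell by 0.63 on the log2 scale, ± 0.10 (adjusted p = 0.000618 in edgeR), and Dgat2 fell by 0.47, ± 0.09 (adjusted p = 0.00178). The genotype comparison at 5 months, which gave 1.39, 0.67 and 0.51 for these genes, uses the same 5-month wild-type libraries.

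In PPARγ-KO livers Gpam went from 832, 615 and 905 to 608, 746 and 536 CPM, with overlap and a log2 fold change of -0.32 (95% interval -0.78 to 0.15). It passed without PPARγ-KO replicate 2 of 2 months (-0.46, adjusted p = 0.0245). Lpin1 changed by 0.75 with a 95% interval from -0.67 to 2.16, since replicate 3 at 2 months already stood at the 5-month level of 365 to 442 CPM. Without that library Lpin1 (1.39, adjusted p = 0.014) and Lpin2 (0.43, adjusted p = 0.000484) passed. Mogat1 rose by 0.86 ± 0.26 (SE, n = 3 per group, edgeR, adjusted p = 0.0205), from 1.35 to 2.34 up to 2.65 to 3.23 CPM, which was still below every wild-type library. That call was lost without PPARγ-KO replicate 1 or 3 of 2 months or replicate 1 or 2 of 5 months (adjusted p = 0.0714, 0.07, 0.0573 and 0.0609). In wild-type Mogat1 changed by 0.22 (95% interval -0.31 to 0.75).

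Of 14491 genes tested in wild-type, 23.8% were called higher and 22.7% lower at 5 months, against 0 and 3 of the 10 enzymes, and of 14478 in PPARγ-KO 22.7% and 22.2%, against 1 and 0. DESeq2 called 3 enzymes lower and 0 higher in wild-type, beside 3073 and 3269 genes. In PPARγ-KO it called 0 lower and 1 higher, beside 2817 and 2963 genes. At an unadjusted p under 0.05 with a 1.3-fold change 3 enzymes passed in wild-type and 1 in PPARγ-KO, beside 5955 and 5210 genes. Without the fold limit 4 and 1 enzymes passed, and the share of all genes was not counted there. Groups of the 2 times did not overlap for 4 enzymes and 56.8% of all genes in wild-type, and for 2 enzymes and 55.6% of all genes in PPARγ-KO. The median size of change was 0.24 for the enzymes and 0.382 for all genes in wild-type, and 0.13 and 0.331 in PPARγ-KO. Clock genes changed between the times in both genotypes, 4 higher and 11 lower of 16 in wild-type and 4 and 10 in PPARγ-KO, Arntl by 2.13 and 1.63 on the log2 scale, and their summed level was 965 to 1090 CPM at 2 months and 449 to 471 at 5 months in wild-type. All 6 macrophage markers were higher at 5 months in wild-type, with 255 to 314 CPM in sum at 2 months and 536 to 598 at 5 months. Their part in the time differences was not tested, and time on diet, age and any difference in collection or sequencing cannot be told apart.

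Levels divided by gene length show which of the 10 enzymes supplied most transcripts of each step. Other isozymes of these steps were left out of the sums and shares. Per kb, wild-type livers at 2 months had most Dgat2 (188 ± 14.6 CPM per kb, SD, n = 3), Gpam (184 ± 50.4) and Agpat2 (148 ± 7.82), then Lpin2 (44.0 ± 5.96), Agpat3 (42.4 ± 2.43) and Gpat4 (34.7 ± 4.24), and least Lpin1 (11.5 ± 5.05), Dgat1 (7.71 ± 0.42), Mogat1 (5.09 ± 1.57) and Gpat3 (4.68 ± 1.29). Neighbours in that order whose SDs overlapped were Dgat2 and Gpam, Gpam and Agpat2, Lpin2 and Agpat3, Lpin1 and Dgat1, and Mogat1 and Gpat3. In wild-type livers at 5 months Gpam (63.3 ± 1.81) had moved below Agpat2 (131 ± 5.05), and Dgat2 (136 ± 8.15) and Agpat2 overlapped at the top. In PPARγ-KO livers Mogat1 was the least abundant of the 10 at both times, at 1.08 ± 0.36 and 1.94 ± 0.20 CPM per kb. Lpin1 there rose in the order to 40.8 ± 4.26 at 5 months, where it overlapped with Agpat3 (44.97 ± 1.92) and Lpin2 (45.1 ± 0.78). Dgat2 made up 94.5% to 96.7% of the diacylglycerol acyltransferase transcripts as group means, and Dgat1 the remainder.

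**Figure D3:**
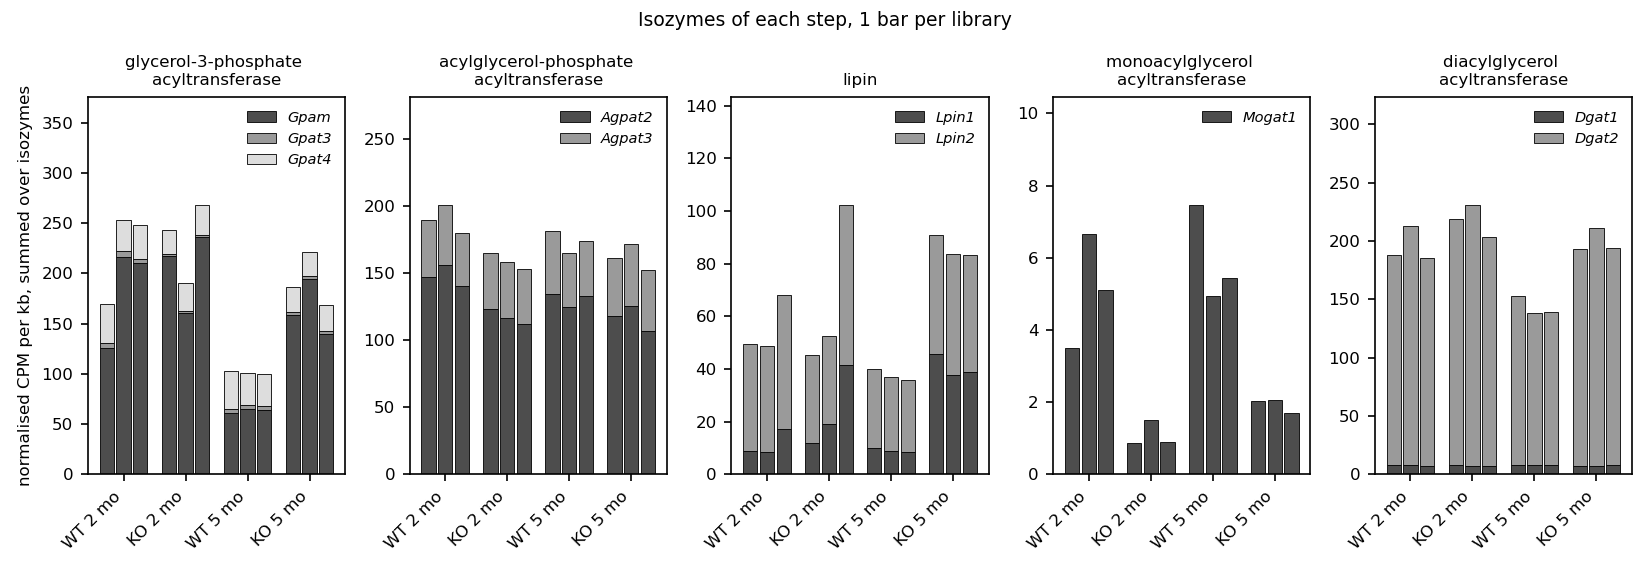
Normalised CPM per kb of gene length for each of the 12 libraries, 1 bar per library, stacked by isozyme within each step. Only the 10 enzymes are included, and vertical scales differ between steps. The first step is lowest in wild-type at 5 months, where Gpam shrinks to 62.5% of it, and the Lpin1 part of the lipin bars grows to 47.5% in PPARγ-KO at 5 months.

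Of Gpam, Gpat3 and Gpat4 transcripts, Gpam held 74.3%, 85.3% and 84.9% in wild-type libraries at 2 months and 59.4%, 64.3% and 63.7% at 5 months. In PPARγ-KO libraries it held 89.2%, 84.1% and 88.2% at 2 months and 85.1%, 87.9% and 83.2% at 5 months. The 5-month wild-type libraries stood below all others. These shares depend on the division by gene length, 3832 bases for Gpam and 6682 for Gpat4. Without it, wild-type libraries at 5 months had 235, 249 and 244 CPM of Gpam and 256, 213 and 215 of Gpat4. The summed level of Gpam, Gpat3 and Gpat4 was 170 to 253 CPM per kb in wild-type at 2 months and 99.8 to 103 at 5 months. In PPARγ-KO it was 191 to 268 and 168 to 222.

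Lpin1 held 17.9%, 17.1% and 25.4% of Lpin1 and Lpin2 transcripts in wild-type libraries at 2 months and 25.5%, 23.7% and 23.9% at 5 months. In PPARγ-KO libraries its share was 26.5%, 36.4% and 40.7% at 2 months and 50.4%, 45.2% and 46.8% at 5 months. PPARγ-KO shares were above all wild-type shares at each time, though the 2-month Lpin1 levels overlapped. The summed level of Lpin1 and Lpin2 was 83.4 to 90.8 CPM per kb in PPARγ-KO and 35.9 to 40.0 in wild-type at 5 months. Agpat2 held 72.1% to 77.7% of Agpat2 and Agpat3 transcripts as group means. This majority rests on the division by gene length, 2130 bases for Agpat2 and 7790 for Agpat3. Without it the order reverses, mean CPM of Agpat3 and Agpat2 being 330 and 314 in wild-type and 322 and 250 in PPARγ-KO at 2 months. At 5 months they were 331 and 278 in wild-type and 350 and 248 in PPARγ-KO. With 3 libraries a group, these shares are given as descriptions without a test.

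The other genes of the pathway were read from a list of 20 that covers further isozymes, the supply of glycerol 3-phosphate and acyl-CoA, and other phosphatases and triglyceride synthases. At 2 months 19 of them could be tested in edgeR and 3 were lower in PPARγ-KO livers, beside 1.78% of all genes. An unadjusted p under 0.05 was reached by 4, a threshold at which the share of all genes was not counted. Gpd1, which reduces dihydroxyacetone phosphate to glycerol 3-phosphate, had a log2 fold change of -0.61 ± 0.11 (adjusted p = 0.0178), and Gpd2, its mitochondrial counterpart in the glycerol phosphate shuttle, one of -0.59 ± 0.10 (adjusted p = 0.0154). The phosphatidate phosphatase Plpp2 had one of -0.56 ± 0.13 (adjusted p = 0.0461). All 3 missed the threshold without wild-type replicate 2 or 3 or any 1 PPARγ-KO library of 2 months, at adjusted p values of 0.0626 to 0.0772 for Gpd1, 0.0507 to 0.0686 for Gpd2 and 0.0937 to 0.199 for Plpp2.

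At 5 months 3 of these 20 genes were higher and 2 were lower, beside 8.9% and 9.51% of all genes tested. Gpd1 (-0.47 ± 0.10, adjusted p = 0.00778) and Gpd2 (-0.46 ± 0.08, adjusted p = 0.00103) were lower again in edgeR. Acsl5, which activates fatty acids to acyl-CoA, rose from 382, 435 and 430 CPM in wild-type to 521, 594 and 532 in PPARγ-KO libraries (log2 fold change 0.41 ± 0.08, adjusted p = 0.00299 in edgeR). Glycerol kinase, Gk, had a log2 fold change of 0.26 ± 0.07 (adjusted p = 0.0177), a call lost without wild-type replicate 2 or 3 or PPARγ-KO replicate 2 or 3 (adjusted p = 0.0702, 0.0678, 0.0787 and 0.0636) and with library size alone (0.0532).

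The third lipin, Lpin3, had 5.39, 6.01 and 5.22 CPM in wild-type and 7.56, 8.16 and 9.73 in PPARγ-KO libraries at 5 months, a log2 fold change of 0.62 ± 0.15 (adjusted p = 0.0111 in edgeR). The adjusted p was 0.0559 without wild-type replicate 3 and 0.0596 without PPARγ-KO replicate 3. With Lpin1 and Lpin2, all 3 lipin genes were thus higher in PPARγ-KO than in wild-type livers at 5 months.

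Lpin1 varied most among the 10 enzymes over the 12 libraries, with an SD of 1.00 on the log2 CPM scale, followed by Mogat1 (0.967) and Gpam (0.736), and Dgat1 varied least (0.0690). Genes most like Lpin1 were ranked by the mean absolute difference of log2 CPM from Lpin1 over the 12 libraries, after each gene was centred on its own mean. Arrdc2 (0.308), Fkbp5 (0.330), Tmc7 (0.364) and Il6ra (0.373) came first of 15127 genes. Mean CPM of Fkbp5 was 22.5 in wild-type and 32.5 in PPARγ-KO at 2 months and 16.6 and 96.2 at 5 months. Among the other enzymes Lpin2 ranked 246, Gpam 370 and Dgat2 896, and Mogat1 ranked 15086, near the end.

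**Figure D4:**
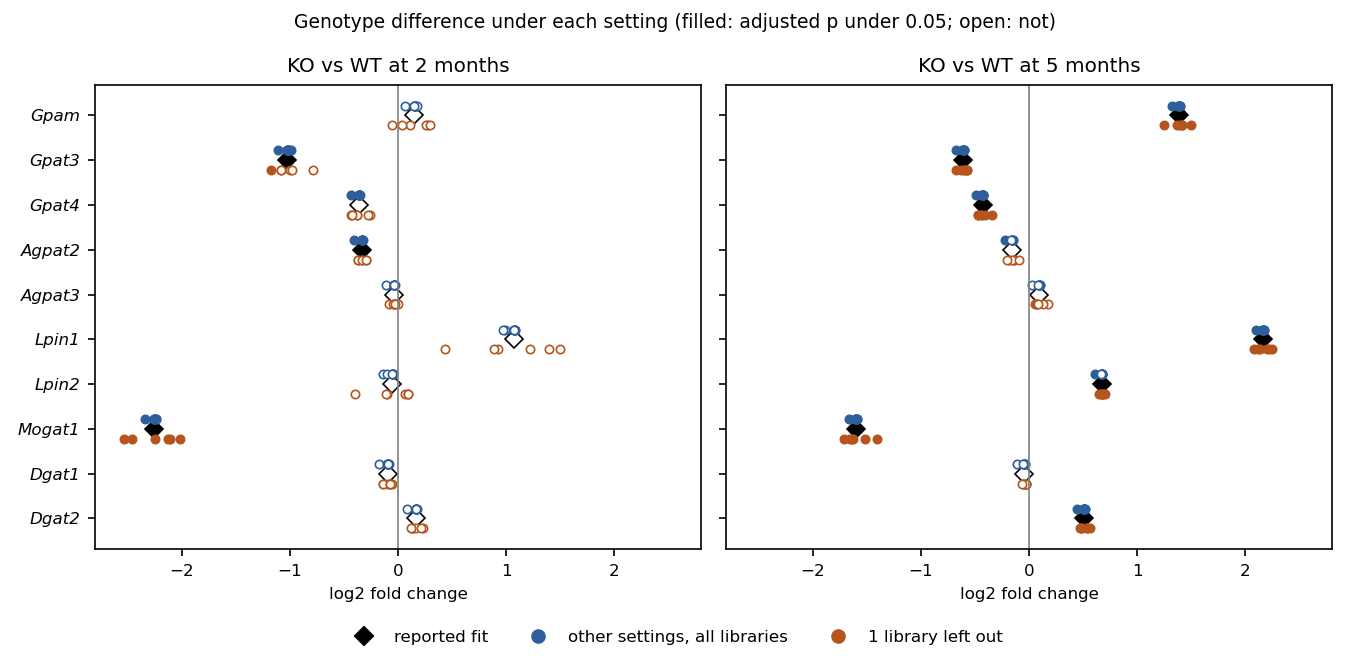
Log2 fold change between PPARγ-KO and wild-type for each enzyme under every alternative tried, at 2 months (left) and 5 months (right), with filled points for adjusted p under 0.05. At 5 months all points of Lpin1, Gpam, Dgat2, Gpat3, Gpat4 and Mogat1 are filled, while at 2 months Mogat1 is filled throughout and Gpat3 and Agpat2 turn open when single libraries are left out.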

How the data were processed

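Total liver RNA was extracted with TRIzol and sequenced by Novogene on the Illumina NovaSeq platform. The authors deposited, for each of the 12 libraries, whole-number read counts for 54532 genes without normalisation. The methods of the study name STAR as the aligner and the submitters' processing notes name HISAT2, both with mm10. The counting program, annotation release and strand setting are not given in the sources used here. The enzymes and lists were chosen with earlier results of these data known, and nothing here is offered as independent support for a pattern already seen.

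The filter for low counts was filterByExpr of edgeR, the scaling was TMM (factors 0.9494 to 1.088), and each comparison was fitted on its own 6 libraries with edgeR 4.0.16 in R 4.3.3. The robust quasi-likelihood F-test was two-sided, with Benjamini-Hochberg adjustment over all genes tested and a threshold of 0.05. The difference between the genotype effects used all 12 libraries. Standard errors and 95% intervals come from the fit. CPM are TMM-scaled over all 12 libraries, and log2 CPM used a pseudocount of 0.5. Fits were tested on simulated data. Replicates carry numbers but no statement of separate animals, so p-values measure the spread between these libraries, which may be partly technical, and counts of low genes such as Mogat1 limit precision.

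Replicate numbers are shared between groups. On the 5000 most abundant genes, same-numbered libraries of both genotypes had correlated deviations at 2 months (0.22, 0.324 and 0.14) and not at 5 months (-0.0779, -0.0603 and -0.179). Differently numbered libraries reached 0.114 at 2 months. Wild-type libraries of the 2 times gave 0.238, 0.185 and 0.0191 for the same number and up to 0.266 for different numbers. The check therefore does not establish that the numbers mark pairs, and the blocked fit is given only as an alternative. Alternatives were DESeq2 1.42.0, its size factors in edgeR, no low-count filter, a minimum of 10 counts in each library, scaling by library size alone, all 12 libraries in one fit, the replicate block, an unadjusted p under 0.05 with a 1.3-fold change, and each library left out. All 10 enzymes are named, other pathway genes only where called in a genotype comparison, and for the most variable enzyme the 5 genes nearest in pattern, 1 of which is not reported here. Motif searches used RefSeq windows, and exons of GENCODE vM21 were left out of the printed sequences. Gene coordinates of the files equal that release for 9 of the 10 enzymes, Gpam being the exception.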

Additional observations from a re-analysis of the deposited data

Results flagged for a closer look

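The genotype effect differed between the times for Lpin3, which encodes the third lipin. At 2 months its PPARγ-KO libraries (8.18, 7.47 and 8.57 CPM) all lay below the wild-type libraries (8.63, 10.2 and 9.55), with a log2 fold change of -0.23 that did not pass the test (edgeR, adjusted p = 0.405), and at 5 months they all lay above them. The difference between the effects was 0.83 ± 0.19 on the log2 scale (SE, edgeR fit of 12 libraries, adjusted p = 0.0415). It missed the threshold with the replicate block (0.0709), with library size alone (0.0539) and in 10 of 12 fits without 1 library (adjusted p up to 0.121). Pparg itself also differed, its excess in PPARγ-KO libraries being larger at 5 months by 0.62 ± 0.15 (edgeR, adjusted p = 0.0432), a call lost with library size alone (0.0585) and in 9 of 12 fits without 1 library (adjusted p up to 0.122).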

How the results depend on the processing

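The 10 enzymes in 5 comparisons gave 50 results, each under 13 or 18 alternatives, 700 in all. Of these, 650 kept the direction and side of the threshold, 15 lost the call, 14 gained one and 21 changed sign, and 27 of the 50 results kept both under every alternative. At 5 months the 7 enzyme calls were kept in every alternative except for Lpin2 with all 12 libraries in one fit. Sign changes touched only differences that had not passed the test. Against wild-type at 2 months, wild-type at 5 months gave Agpat3 -0.082 with library size alone, -0.019 with at least 10 counts in every library and -0.00071 with the replicate block, and Dgat1 -0.055 with library size alone. For Gk at 2 months, library size alone gave -0.040. Leaving out 1 library each gave ranges across 0. In PPARγ-KO against wild-type at 2 months these were -0.058 to 0.30 for Gpam, -0.078 to 0.0022 for Agpat3, -0.39 to 0.096 for Lpin2 and -0.021 to 0.080 for Gk. In wild-type over time they were -0.11 to 0.076 for Gpat4, -0.069 to 0.052 for Agpat3, -0.52 to 0.086 for Lpin1 and -0.018 to 0.064 for Dgat1. In PPARγ-KO over time they were -0.061 to 0.054 for Agpat2 and -0.064 to 0.43 for Lpin2, and for the difference between genotype effects -0.18 to 0.011 for Gpat4.

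The count of genes called between genotypes at 2 months was 519. It was 1562 without a filter, 988 with DESeq2, 1608 at an unadjusted p under 0.05 with a 1.3-fold change, 817 with the replicate block, 1153 with all 12 libraries in one fit and 117 to 1577 with 1 library left out, the highest without wild-type replicate 1 and the lowest without wild-type replicate 2. At 5 months 2602 genes were called, 1593 to 3078 with 1 library left out. The lowest counts came without wild-type replicate 3 (1593) or 2 (1601), the closest pair of replicates. For the difference between the effects 238 were called, 793 without a filter, 594 with DESeq2, 1563 at the unadjusted threshold and 83 to 567 with 1 library left out. Enzymes called for that difference were 0, 1 with DESeq2, 2 at the unadjusted threshold, 2 with the replicate block and 0 to 1 with 1 library left out. Enzymes called at 2 months were 3, and 1 to 3 with 1 library left out. In PPARγ-KO over time 1 was called, 2 with library size alone (Dgat2 the second, adjusted p = 0.0422) and 0 to 2 with 1 library left out. The replicate block changed no other enzyme call between genotypes at 2 months than that of Agpat2. Over time same-numbered libraries had correlations of 0.0191 to 0.238 in wild-type and -0.0376 to 0.218 in PPARγ-KO, with 6941 genes called in wild-type and 6025 in PPARγ-KO under the block. With library size alone the median log2 fold change of all genes was -0.0929 to 0.0163, in place of -0.0128 to -0.00445. This scaling added the calls of Gpat4 at 2 months and of Agpat2 at 5 months (-0.22, adjusted p = 0.0296) and over time in wild-type (-0.26, adjusted p = 0.0194). The cause was not tested. Without division by length 22 of 36 isozyme shares moved by more than their SD, and library size alone moved 5 of 40 levels by as much.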
